A study of Mus musculus with 9 samples.

Results

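The T cell receptor variable segments and constant genes were described in bulk RNA sequencing of 9 orthotopic Hepa1-6 tumors. Members were the genes whose names place them among the Trav, Trbv and Trdv variable segments or the constant genes Trac, Trbc1, Trbc2 and Trdc, matched by name with no measured value. The tables listed 175 such genes of 52176 gene names in all, and 140 of them had a value above 0 in at least 1 tumor. These 140 were 110 Trav, 23 Trbv and 3 Trdv segments and the 4 constant genes. The other 35, all of them segments, were at 0 in all 9 tumors. Values were FPKM, a fragment count scaled for transcript length and for the size of the library.

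Hepa1-6 is a mouse hepatoma line. Pieces of subcutaneous Hepa1-6 tumor were implanted in the left liver lobe of male C57BL/6 mice, given as 6 to 8 weeks old in the study's methods. The mice received 5 intraperitoneal injections, 4 days apart from day 10 to day 26, of PBS or of an anti-PD-1 antibody (clone RMP1-14), which blocks the inhibitory receptor PD-1 on T cells, and whole tumors were frozen on day 27. Each group held 3 tumors, all of the C57BL/6 genotype. The PBS group was the control, the anti-PD-1 antibody-responsive group was the 3 smallest antibody-treated tumors, and the anti-PD-1 antibody-nonresponsive group was the 3 largest. Tumors of intermediate size had been left out, so that the antibody-treated groups also differ in size by their definition, and size and response cannot be told apart. A bulk library holds all cells of a tumor, and fewer T cells and less receptor RNA per T cell cannot be told apart.

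A T cell receptor is a pair of chains, alpha with beta or gamma with delta, and each chain joins a variable region to a constant region. In the developing T cell a variable segment is recombined with a joining segment, and in the beta and delta chains also with a diversity segment, so that a mature cell and its descendants mostly transcribe the same variable segment from that chain. Segments transcribed by many cells of different origin give many small values, and a segment used by an expanded clone can take a large share of the reads of its chain.

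The delta segments overlap the downstream end of the alpha segments on mouse chromosome 14 and extend beyond it, and the beta locus lies on chromosome 6 (GENCODE M21, GRCm38, matched by symbol for 173 of the 175 members). The Trav segments span chr14:52427928-53977678 and Trac lies downstream at chr14:54220521-54224206. The Trbv segments span chr6:40891229-41558452, and the region of Trbc1 and Trbc2 is chr6:41538218-41548352. Many alpha segments exist in near-identical copies, marked d and n in their names. In 17 pairs, 34 segments in all, the coding sequences of the 2 copies were the same base for base. For such pairs, the 2 copies had values within 5% of each other in 78 of the 86 pair and tumor combinations with a value above 0 (90.7%). Values of single copies are therefore uncertain, since reads of one cannot be told from reads of the other.

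The sequences of the segments with the largest differences between tumors show how far each can be told from a close relative. The last 300 bases of each coding sequence in GENCODE M21 (GRCm38, plus strand) are written 5′ to 3′. For the beta segments Trbv12-1 (chr6:41113550-41114067) and Trbv12-2 (chr6:41118851-41119364), capitals mark the 32 of these bases that differ between them, and over the whole coding sequence 44 of 372 aligned bases differed (88.2% identity).
Trbv12-1: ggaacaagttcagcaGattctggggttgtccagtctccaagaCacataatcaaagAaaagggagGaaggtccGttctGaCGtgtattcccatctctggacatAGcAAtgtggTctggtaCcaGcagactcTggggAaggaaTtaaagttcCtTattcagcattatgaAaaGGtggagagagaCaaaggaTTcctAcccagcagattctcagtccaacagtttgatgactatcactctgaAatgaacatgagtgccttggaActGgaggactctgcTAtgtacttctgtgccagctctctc
Trbv12-2: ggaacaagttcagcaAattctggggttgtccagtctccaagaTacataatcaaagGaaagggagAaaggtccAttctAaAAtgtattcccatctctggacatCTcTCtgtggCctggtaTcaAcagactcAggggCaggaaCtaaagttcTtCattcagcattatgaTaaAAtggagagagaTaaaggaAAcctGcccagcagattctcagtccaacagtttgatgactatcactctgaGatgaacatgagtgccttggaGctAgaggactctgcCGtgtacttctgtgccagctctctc
For the alpha segments Trav14-2 (chr14:53640701-53641225) and Trav14n-3 (chr14:53370077-53370575), capitals mark bases that differ or face a gap, which over the whole coding sequence were 20 of 364 aligned positions (94.5% identity).
Trav14-2: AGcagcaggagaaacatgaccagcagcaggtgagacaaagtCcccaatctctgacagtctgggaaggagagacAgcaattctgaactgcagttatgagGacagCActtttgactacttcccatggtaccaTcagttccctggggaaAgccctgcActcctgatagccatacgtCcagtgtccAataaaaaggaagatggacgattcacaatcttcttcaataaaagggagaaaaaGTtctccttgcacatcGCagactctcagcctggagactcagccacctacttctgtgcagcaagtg
Trav14n-3: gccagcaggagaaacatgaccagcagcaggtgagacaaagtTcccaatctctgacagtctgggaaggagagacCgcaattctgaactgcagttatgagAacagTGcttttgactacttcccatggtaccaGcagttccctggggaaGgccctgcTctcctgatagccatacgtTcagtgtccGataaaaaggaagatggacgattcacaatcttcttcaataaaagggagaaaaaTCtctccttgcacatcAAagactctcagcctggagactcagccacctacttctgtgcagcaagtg
For the delta segment Trdv4 (chr14:54074905-54075515), which the files join with the delta constant gene in several tumors, capitals mark the last cysteine codon in the reading frame, codon 111, close to the join.
Trdv4: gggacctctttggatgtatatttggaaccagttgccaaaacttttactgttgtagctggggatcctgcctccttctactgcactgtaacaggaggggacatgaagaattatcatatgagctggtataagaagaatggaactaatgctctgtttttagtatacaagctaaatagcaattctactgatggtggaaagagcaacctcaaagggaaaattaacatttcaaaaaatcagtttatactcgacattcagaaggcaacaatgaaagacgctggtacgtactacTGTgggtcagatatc
The differences between the paired segments were spread over much of their length, but both pairs also had longer stretches without any, the 3′ end among them. Reads that lie within such a stretch cannot tell the 2 segments apart. The constant genes Trbc1 and Trbc2 were 95.6% identical over their coding sequences, and the files gave them 1 joint value in every tumor.

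The tumors differed in composition beyond T cells. The 5 T cell markers Cd3d, Cd3e, Cd3g, Cd2 and Cd5 were above 0 in every tumor, with a summed FPKM of 26.98 to 97.8 in PBS, 64.3 to 73.4 in nonresponsive and 85.5 to 108 in the responsive group. The 6 hepatocyte markers (Alb, Ttr, Apoa1, Cps1, Cyp2e1 and Ass1), all above 0 in all tumors, summed to 306 to 2764, 1745 to 6152 and 5631 to 11814. All 6 hepatocyte markers were higher in responsive than in PBS tumors with an unadjusted p under 0.05 (limma). Of all loci 19.1% had such a p, 9.12% in this direction. Against nonresponsive tumors 3 of the 6 were higher with such a p, where 5.93% of all loci had one, 4.36% in this direction. None of the 6 had an adjusted p under 0.05 in either comparison. Of the 5 fetal liver and hepatoma markers (Afp, H19, Gpc3, Dlk1 and Igf2), Dlk1 was at 0 in responsive tumor 2 and the others were above 0 in every tumor. Afp ranged from 0.321 to 56.5 FPKM without a difference beyond its spread, H19 (with Mir675) was lower in responsive (3.01 to 11.03 FPKM) than in nonresponsive tumors (15.7 to 39.3; limma, unadjusted p = 0.0103), and Igf2 (with Gm49394) was higher in nonresponsive (3.84 to 5.47) than in PBS tumors (0.805 to 1.92; unadjusted p = 0.00176). Cd79a and Cd79b, the signaling subunits of the B cell receptor, were also highest in responsive tumors on average. Cd79a had 0.422, 23.6 and 13.1 FPKM in PBS, 0, 7.91 and 6.73 in nonresponsive and 46.98, 24.4 and 67.4 in the responsive group, and Cd79b had 0.869, 27.7 and 15.5, then 21.7, 13.6 and 9.26, and then 57.3, 21.2 and 85.3. Both exceeded their nonresponsive levels in the responsive group (limma, unadjusted p = 0.00821 and 0.0225, adjusted p = 0.835 for each), and for Cd79a the groups did not overlap. The 5 natural killer cell markers, none at 0, summed to 9.10 to 35.4, 25.8 to 45.2 and 13.3 to 24.7 FPKM in the same order of groups, and the 5 macrophage markers, none at 0, to 342 to 638, 629 to 993 and 579 to 941. PBS tumor 1 stood apart, with the lowest T cell markers and with Cd247 at 0. The part of these differences in the receptor results was not tested.

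More receptor segments were seen in the antibody-treated tumors than in 2 of the 3 PBS tumors. A segment was counted as seen when an entry that names it had an FPKM above 0. In PBS tumors 1, 2 and 3, 55, 93 and 69 variable segments were seen (72.3 ± 19.2, mean ± SD, n = 3). In nonresponsive tumors the numbers were 88, 86 and 80 (84.7 ± 4.16), and in responsive tumors they were 95, 84 and 103 (94.0 ± 9.54). PBS tumor 2 lay within the range of the responsive tumors, and the ranges of all 3 groups overlapped. Responsive tumors had on average 9.33 more segments than nonresponsive tumors, against a pooled SD of 7.36, and 21.7 more than PBS tumors, against a pooled SD of 15.2. Without PBS tumor 1 the latter was 13.

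The spread came from the alpha segments. Trav segments seen numbered 35, 73 and 49 in PBS, 65, 65 and 62 in nonresponsive and 72, 61 and 80 in the responsive group. Trbv segments were nearly all present in every tumor, with 19 in each PBS tumor, 21, 20 and 17 in nonresponsive and 22, 20 and 22 in the responsive group. Of the 23 Trbv segments seen in any tumor, 16 were above 0 in all 9 tumors, compared with 4 of the 110 Trav segments seen. Most segment values were small. Of 723 segment values above 0 over the 9 tumors, 575 (79.5%) had a deposited confidence interval that reached 0. When only segments with a lower bound above 0 were counted, the numbers were 7 to 25 in PBS, 17 to 22 in nonresponsive and 15 to 28 in the responsive group, and responsive tumors had 1.67 more than nonresponsive tumors.

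**Figure D1:**
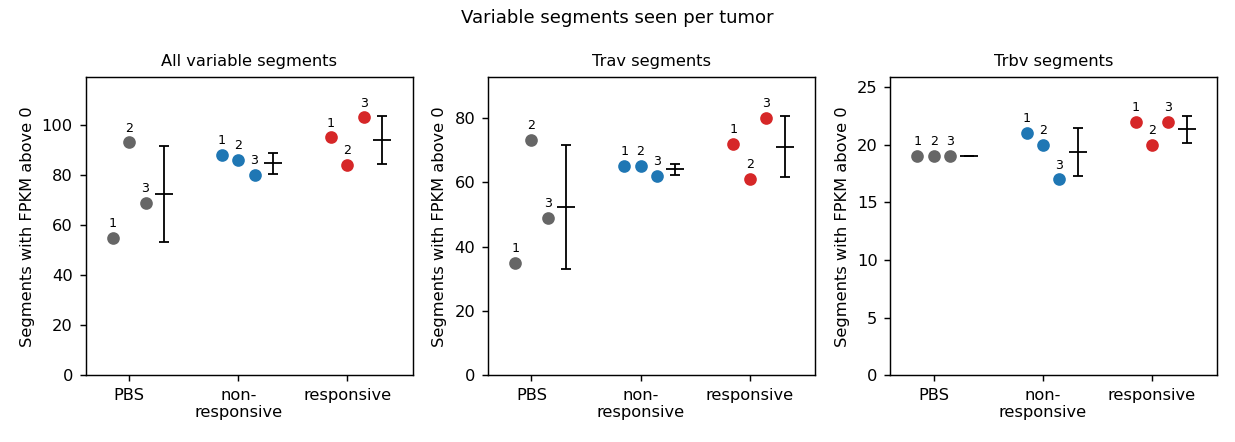
Number of variable segments with FPKM above 0 in each tumor (y axis) by group (x axis), for all variable segments, Trav and Trbv; points are tumors with their numbers, and bars give mean ± SD of 3 tumors. The PBS tumors spread from 55 to 93 segments, the nonresponsive tumors lie between 80 and 88, and the Trbv counts stay between 17 and 22 in every tumor.

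Segments annotated as functional made up nearly all that was seen. GENCODE M21 annotates 135 of the listed segments as functional genes, of which 130 were above 0 in some tumor, and 34 as pseudogenes, of which 5 were. The 5 pseudogenes were Trav11n, Trav13-3, Trav9n-1, Trbv22 and Trbv24, each in at most 2 tumors and none above 2.39 FPKM. Only 21 segments were seen in all 9 tumors, and 9 were seen in a single tumor. Of the 10 alpha segments whose names carry dv, which can also be used by the delta chain, all were seen in at least 1 tumor.

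On the beta side the same entry, which pools 3 segments, led in 8 of the 9 tumors. Among entries naming 1 gene the leader varied. It was Trbv16, Trbv12-1 and Trbv13-3 in PBS tumors 1, 2 and 3 and Trbv13-1, Trbv29 and Trbv13-1 in the nonresponsive tumors. In the responsive tumors it was Trbv14, Trbv12-1 and Trbv12-1. The entry that joins Trbv12-2, Trbv13-2 and Trbv13-3 (joined over tumors, since the files split it differently) had 11.1, 24.3 and 17.6 FPKM in PBS, 20.4, 15.4 and 14.4 in nonresponsive and 31.1, 20.7 and 33.7 in the responsive group. It took 28.1, 17.4 and 30.02% of the summed Trbv FPKM in PBS, 21.1, 19.6 and 21.1% in nonresponsive and 23.4, 21.7 and 23.4% in the responsive group. In PBS tumors 1 and 3 and responsive tumor 1 the files held Trbv12-2/Trbv13-2 as an entry apart from Trbv13-3. There the joined value is the sum of the separate entries, and Trbv12-2/Trbv13-2 alone had 17.0, 16.0 and 19.97%. In PBS tumor 2 the joined entry came second to Trbv12-1, which held 21.3%. The 5 Trbv entries with the highest mean over all tumors were this entry (20.97 FPKM), Trbv4/Trbv5 (9.89), Trbv13-1 (7.79), Trbv12-1 (7.09) and Trbv1 (6.91), where the Trbv4/Trbv5 entry also names the gene 5830405F06Rik. Of these, Trbv12-1 was the only one that was at 0 in any tumor.

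As deposited, the share of the highest Trbv entry was 17.0, 21.3 and 16.0% in PBS, 21.1, 19.6 and 21.1% in nonresponsive and 19.97, 21.7 and 23.4% in the responsive group. The nonresponsive and responsive groups overlapped. The mean share was 3.59 percentage points higher in responsive than in PBS tumors as deposited, but 3.63 points lower (difference −3.63) once the entries were joined over tumors, so no direction can be given for this comparison. Evenness of the Trbv entries was given by the inverse Simpson number, which equals the number of entries if all had the same level. It was 10.02, 9.06 and 9.63 in PBS, 10.04, 11.1 and 8.41 in nonresponsive and 10.6, 8.06 and 9.91 in the responsive group. Joined over tumors it was 7.27, 9.06 and 6.73 in PBS (7.69 ± 1.22, SD, n = 3), the same as before in nonresponsive tumors (9.86 ± 1.37) and 9.26, 8.06 and 9.91 in the responsive group (9.08 ± 0.940). The ranges of the groups overlapped either way.

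**Figure D2:**
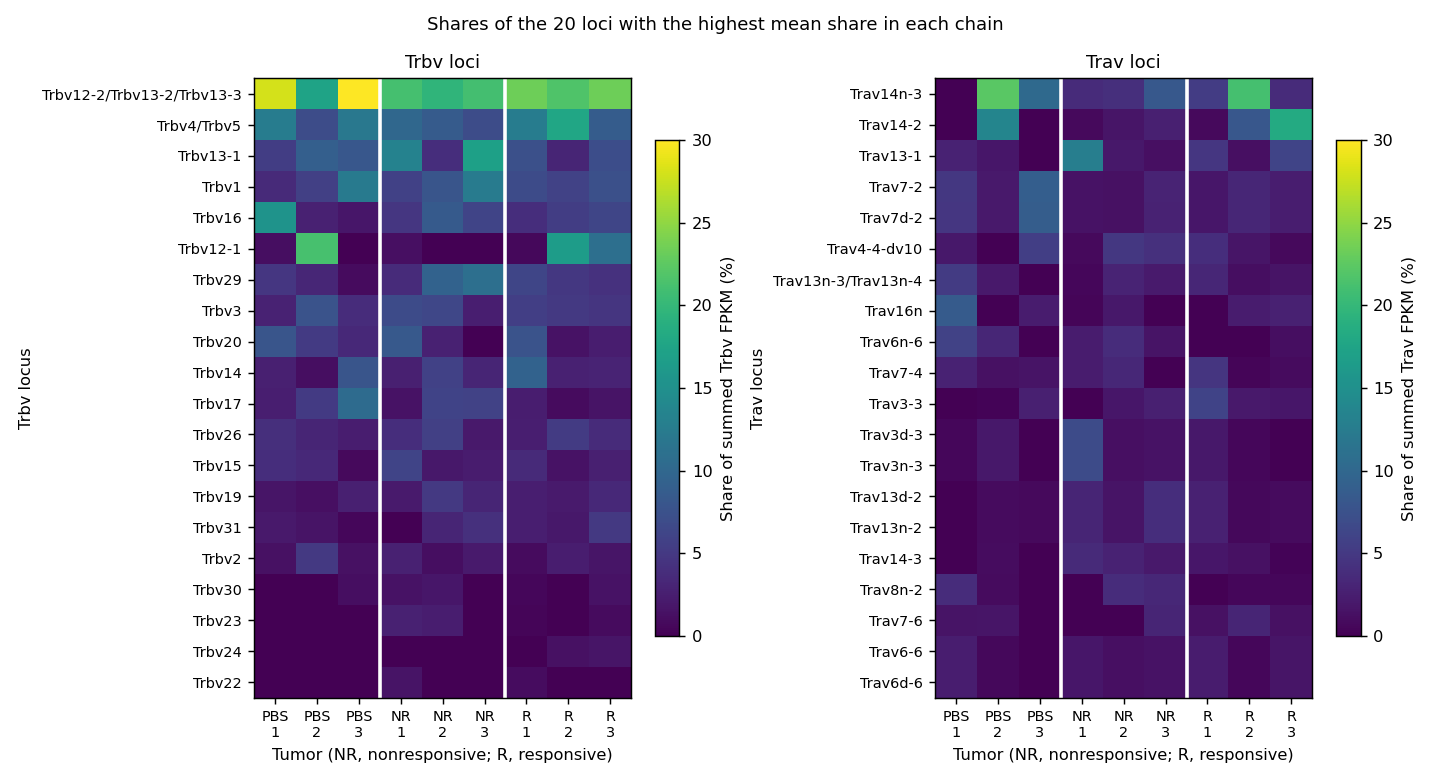
Share of the summed FPKM of the chain (color, %) held by each of the 20 Trbv loci (left) and the 20 Trav loci (right) with the highest mean share, by tumor (columns). The Trbv12-2/Trbv13-2/Trbv13-3 row is at 17.4 to 30.02% in every tumor, whereas Trbv12-1, Trav14n-3 and Trav14-2 are high in only a few columns.

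Alpha chain usage differed from tumor to tumor. Trav14n-3 led in tumors of all 3 groups, and every other leading segment led in only 1 tumor. The highest Trav segment was Trav16n in PBS tumor 1, Trav14n-3 in PBS tumors 2 and 3, Trav13-1, Trav4-4-dv10 and Trav14n-3 in nonresponsive tumors 1, 2 and 3, and Trav3-3, Trav14n-3 and Trav14-2 in responsive tumors 1, 2 and 3. Its share of the summed Trav FPKM was 8.56, 22.4 and 10.2% in PBS, 12.9, 4.90 and 8.28% in nonresponsive and 6.06, 21.1 and 18.3% in the responsive group. The highest shares, 18.3% and above, were those of PBS tumor 2 and responsive tumors 2 and 3. The groups overlapped, and the mean share of 15.2 ± 8.02% in responsive tumors differed from the 8.68 ± 3.99% in nonresponsive tumors by about the pooled SD (6.50 against 6.33 percentage points). The inverse Simpson number of the Trav segments was 24.3, 12.7 and 22.8 in PBS, 24.0, 41.9 and 36.1 in nonresponsive and 40.7, 14.7 and 20.1 in the responsive group. It was lowest in PBS tumor 2 and responsive tumor 2.

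The 5 Trav entries with the highest mean level were Trav14n-3 (7.79 FPKM), Trav14-2 (5.97), Trav13-1 (3.20), Trav7-2 (2.201) and Trav7d-2 (2.17). The last pair differ at 1 of 337 aligned positions and had nearly the same value in each tumor, from 1.04 to 4.31 FPKM. Trav14n-3 had 0, 30.1 and 4.91 FPKM in PBS, 2.70, 3.12 and 5.68 in nonresponsive and 4.89, 13.4 and 5.22 in the responsive group. Trav14-2 had 0, 18.4 and 0 FPKM in PBS, 0.563, 1.28 and 1.78 in nonresponsive and 0.679, 5.17 and 25.9 in the responsive group. Trav14n-3 was high in PBS tumor 2 and responsive tumor 2, and Trav14-2 in PBS tumor 2 and responsive tumor 3. With all Trav14 segments summed, the family led in PBS tumor 2 (42.6% of the Trav sum), responsive tumors 2 (35.8%) and 3 (29.4%) and nonresponsive tumor 3 (17.9%).

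Trbv12-1 was high in the 3 tumors in which the Trav14 family took its largest shares. It had 0.440, 29.7 and 0 FPKM in PBS, 1.24, 0 and 0 in nonresponsive and 0.801, 15.8 and 15.8 in the responsive group. In PBS tumor 2 and responsive tumors 2 and 3 the deposited intervals were 22.3 to 37.2, 10.3 to 21.3 and 10.7 to 21.01 FPKM, and in the other 6 tumors they reached 0 or the segment was listed at 0. Cd8a (with Gm44174), the alpha chain of the coreceptor of cytotoxic T cells, had 24.4, 22.8 and 19.1 FPKM in these same 3 tumors and 2.46 to 6.77 in the other 6. Cd8b1, the beta chain of that coreceptor, had 13.5, 16.8 and 10.7 FPKM in them and 5.18 to 9.56 in the others. Cd4, the coreceptor of helper T cells, was 2.22, 13.6 and 6.04 FPKM in PBS, 11.3, 11.2 and 7.87 in nonresponsive and 15.3, 7.79 and 16.8 in the responsive group, and did not separate the same tumors. Whether the segments and Cd8a came from the same cells was not tested.

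**Figure D3:**
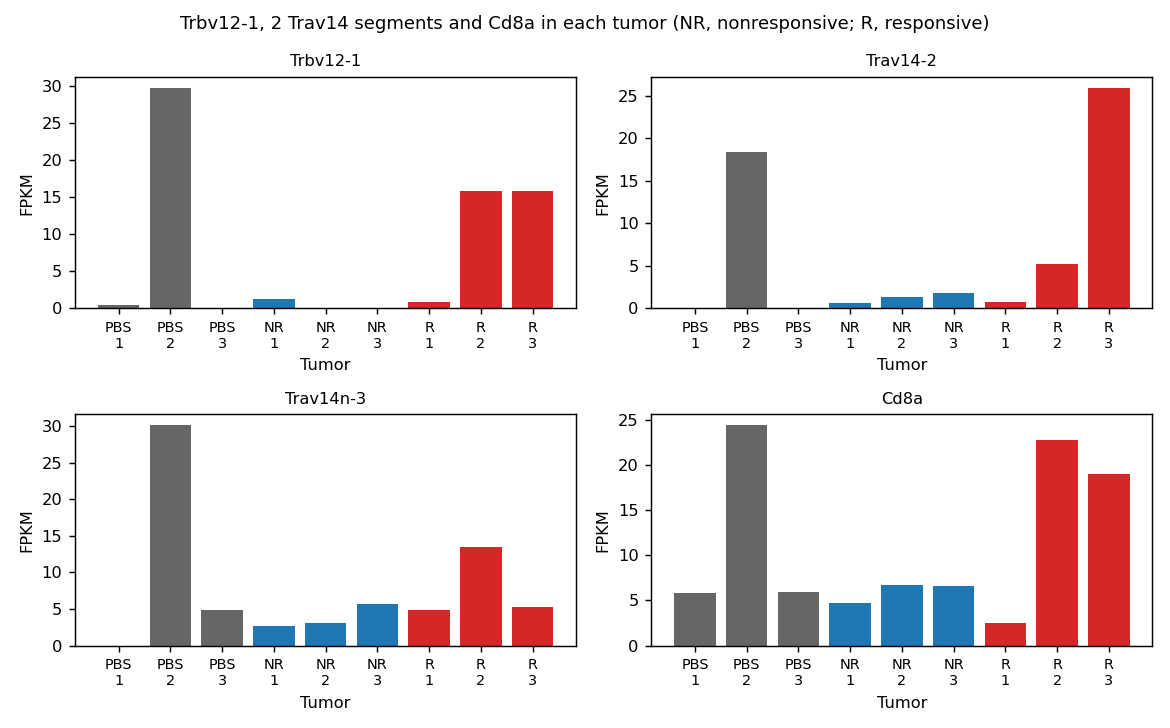
FPKM (y axis) of Trbv12-1, Trav14-2, Trav14n-3 and Cd8a (with Gm44174) in each tumor (x axis). Each bar is 1 tumor, colored by group. PBS tumor 2 and responsive tumors 2 and 3 have the 3 highest bars for Trbv12-1 (15.8 to 29.7), Trav14-2 (5.17 to 25.9) and Cd8a (19.1 to 24.4).

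The first comparison asked how tumors that responded to the antibody differed from those that did not. The beta constant locus Trbc1/Trbc2 was higher in every responsive tumor than in any nonresponsive tumor. Its level was 34.7, 108 and 53.7 FPKM in PBS, 90.4, 72.4 and 65.5 in nonresponsive and 101, 111 and 163 in the responsive group. Means were 125 ± 33.0 in responsive and 76.1 ± 12.8 FPKM in nonresponsive tumors (SD, n = 3). The log2 fold change on log2(FPKM + 1) values was 0.69 ± 0.26 (SE; limma, unadjusted p = 0.0348, adjusted p = 0.835), and a two-sided exact permutation test gave p = 0.1, the smallest that 3 against 3 tumors allow. The unadjusted p was 0.118 when all 9 tumors shared 1 fit and 0.0949 when tumors were scaled to the same summed FPKM of named entries, and it was 0.0507 to 0.122 without nonresponsive tumor 2 or 3 or responsive tumor 2 or 3.

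Trac, the alpha constant gene, did not separate the groups. Its level, read over an entry that also names joining segments, was 26.9, 49.7 and 25.4 FPKM in PBS, 49.5, 42.2 and 29.2 in nonresponsive and 48.8, 42.2 and 62.5 in the responsive group. The log2 fold change of responsive against nonresponsive tumors was 0.35 ± 0.27 (limma, unadjusted p = 0.237), and the exact permutation test gave p = 0.4. The ratio of the beta to the alpha constant locus was 1.29, 2.18 and 2.11 in PBS, 1.82, 1.72 and 2.24 in nonresponsive and 2.07, 2.64 and 2.602 in the responsive group.

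**Figure D4:**
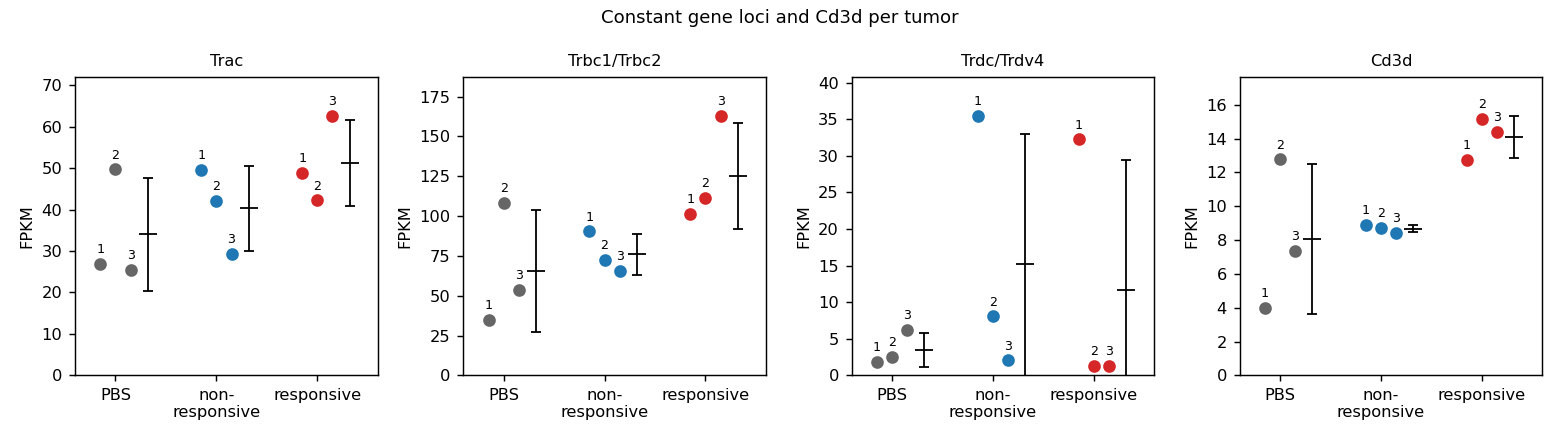
FPKM (y axis) of the constant loci Trac, Trbc1/Trbc2 and Trdc/Trdv4 and of Cd3d in each tumor, by group (x axis); points are tumors with their numbers and bars give mean ± SD of 3 tumors, cut at 0. Responsive tumors lie above all nonresponsive tumors for Trbc1/Trbc2 (101 to 163 against 65.5 to 90.4) and for Cd3d, while Trdc/Trdv4 is high in only 1 tumor of each antibody-treated group.

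In the same comparison 50 receptor loci had enough signal to be tested, that is, an FPKM of 1 or more in 3 or more of the 6 tumors. Of these, 4 had an unadjusted p under 0.05, all higher in responsive tumors (limma), where 5.93% of all 12716 loci had such a p in either direction and 4.36% in this direction. No receptor locus had an adjusted p under 0.05, against 8 of all loci (0.0629%). The 4 were Trbc1/Trbc2, Trbv4/Trbv5, Trbv12-2/Trbv13-2/Trbv13-3 and Trbv12-1, all of the beta chain, and none of the 29 Trav loci tested was among them. The groups did not overlap for 3 of the 50, against 10.5% of all loci. These shares were near those of all loci. The median log2 fold change was 0.26 over the receptor loci and −0.067 over all loci, and 33 of 50 were above 0, against 41.8% of all loci. Scaling to the same summed FPKM of named entries moved the median of all loci by −0.18, and that of the receptor loci was then 0.10. With that scaling 32.9% of the loci with an unadjusted p under 0.05 were higher in responsive tumors, against 73.6% otherwise.

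Trbv4/Trbv5 had 4.98, 9.71 and 7.04 FPKM in PBS, 9.64, 6.71 and 4.75 in nonresponsive and 16.8, 16.9 and 12.5 in the responsive group. All responsive tumors were above the others. The log2 fold change was 1.06 ± 0.28 against nonresponsive tumors (limma, unadjusted p = 0.00841, adjusted p = 0.835) and 1.02 ± 0.26 against PBS tumors (unadjusted p = 0.00791, adjusted p = 0.246), and it kept an unadjusted p under 0.05 without any single tumor. The joined Trbv12-2/Trbv13-2/Trbv13-3 entry, whose values are given above, was 0.72 ± 0.26 higher on this scale in responsive than in nonresponsive tumors, and the 2 groups did not overlap (limma, unadjusted p = 0.0294, adjusted p = 0.835). Trbv12-1 had a log2 fold change of 2.61 ± 0.93 (limma, unadjusted p = 0.0300, adjusted p = 0.835) but its groups overlapped, since responsive tumor 1 lay below nonresponsive tumor 1. Without nonresponsive tumor 2 or 3 or responsive tumor 3 these 2 entries had unadjusted p values of 0.0774 to 0.106, and the same was true without responsive tumor 1 for the joined entry (0.0880) and without responsive tumor 2 for Trbv12-1 (0.0906).

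Against PBS, most receptor loci were higher in responsive tumors, with few of them past the test. Of 38 receptor loci tested, 6 had an unadjusted p under 0.05 (limma), all higher in responsive tumors, where 19.1% of all 12715 loci had such a p and 9.12% in this direction. None had an adjusted p under 0.05, against 19 of all loci (0.149%). The 6 were Trbv4/Trbv5, Trav6-5, Trav3-3, Trbv19, Trbv29 and Trbv31, and 32 of the 38 had a positive log2 fold change, against 41.6% of all loci, with a median of 0.62 against −0.11 over all loci. Scaled to the same summed FPKM of named entries, 4 receptor loci had such a p, the median of the receptor loci was 0.53 and that of all loci moved by −0.13. Of all loci with such a p, 27.8% were then higher in responsive tumors, against 47.6% unscaled. The groups did not overlap for 5 of the 38, against 28.8% of all loci. Trav6-5 had 0, 0.397 and 0.336 FPKM in PBS and 1.13, 1.22 and 1.34 in responsive tumors, a log2 fold change of 0.86 ± 0.22 (limma, unadjusted p = 0.00763, adjusted p = 0.246). It passed the filter on FPKM only through the responsive tumors, the group in which it was high. Its p, its place among the 6 loci and its lack of overlap are therefore no independent support. Trav3-3 had 0, 0.354 and 1.25 FPKM in PBS and 5.58, 1.30 and 2.56 in responsive tumors. Trbv4/Trbv5 kept an unadjusted p under 0.05 without any single tumor. Trav3-3, Trbv19, Trbv29 and Trbv31 did not without PBS tumor 1 or responsive tumor 1 or 3 (0.0641 to 0.131). Nor did the 3 Trbv segments without PBS tumor 3 (0.0512 to 0.136) or Trav3-3 without PBS tumor 2 (0.0743). Without PBS tumor 2, 12 receptor loci had an unadjusted p under 0.05, and without responsive tumor 1 or 3 there were 2. The number of all loci with such a p also moved with the tumor left out, from 1097 to 4080.

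Trbc1/Trbc2 was 1.05 ± 0.44 higher on the log2 scale in responsive than in PBS tumors (limma, unadjusted p = 0.0554), with an exact permutation p of 0.2. Without PBS tumor 2 it was 1.48 (unadjusted p = 0.00596). PBS tumor 2, at 108 FPKM, lay within the responsive range. For Trac the difference was 0.62 ± 0.31 (limma, unadjusted p = 0.0887) with an exact permutation p of 0.3, and without PBS tumor 2 it was 0.92 (unadjusted p = 0.01002).

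Nonresponsive and PBS tumors, the third comparison, shared the PBS libraries with the previous one. Of 40 receptor loci tested, 3 had an unadjusted p under 0.05 (limma), all higher in nonresponsive tumors, where 3.23% of all 12663 loci had such a p and 1.57% in this direction. None had an adjusted p under 0.05, against 5 of all loci (0.0395%). The 3 loci stood for 2 sequences, since Trav13d-2 and Trav13n-2 share their coding sequence and their values. Trav14-3 had 0, 1.40 and 0 FPKM in PBS and 2.599, 2.19 and 1.38 in nonresponsive tumors, a log2 fold change of 1.17 ± 0.41 (limma, unadjusted p = 0.0296, adjusted p = 0.6995). Trav13d-2 and Trav13n-2 had 0, 1.26 and 0.353 FPKM in PBS and 2.25, 1.21 and 2.71 in nonresponsive tumors. Trbv19 was the 1 locus of 40 whose groups did not overlap, against 8.09% of all loci, with 0.689, 1.75 and 1.58 FPKM in PBS and 2.14, 3.88 and 2.15 in the nonresponsive group. Over these 40 loci the median log2 fold change was 0.33, against −0.056 over all loci, and 28 of them were above 0, against 44.4% of all loci. With the same scaling 3 receptor loci had such a p, the median over the 43 receptor loci then tested was 0.38, and 63.05% of all loci with such a p were higher in nonresponsive tumors, against 48.7% unscaled. Trav14-3 no longer had an unadjusted p under 0.05 without PBS tumor 1 or 3 or nonresponsive tumor 1 or 2, nor did the Trav13 pair without PBS tumor 1 or 3 or nonresponsive tumor 1 or 3, with values of 0.0816 to 0.0972.

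Trbc1/Trbc2 gave a log2 fold change of 0.36 ± 0.42 between nonresponsive and PBS tumors (limma, unadjusted p = 0.432; exact permutation p = 0.5), −0.016 without PBS tumor 1 and 0.79 without PBS tumor 2 (unadjusted p = 0.0410). Trac gave 0.27 ± 0.33 (limma, unadjusted p = 0.445; exact permutation p = 0.6).

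Some partners of the receptor were also higher in responsive than in nonresponsive tumors. Cd3d, a subunit of the CD3 complex that carries the receptor signal into the cell, had 3.98, 12.8 and 7.37 FPKM in PBS, 8.88, 8.71 and 8.44 in nonresponsive and 12.8, 15.2 and 14.4 in the responsive group. It was higher in all responsive than in all nonresponsive tumors, by 0.64 ± 0.17 on the log2 scale (limma, unadjusted p = 0.00830, adjusted p = 0.835). Of the 7 genes of the receptor complex and coreceptors (Cd3d, Cd3e, Cd3g, Cd247, Cd4, Cd8a and Cd8b1), all 7 had a positive log2 fold change with a median of 0.43, and Cd3d was the 1 gene with an unadjusted p under 0.05, where 41.8% of all loci were positive and 5.93% had such a p. The groups also did not overlap for Cd3g, with 25.6, 26.02 and 25.2 FPKM in nonresponsive and 29.1, 38.9 and 39.0 in the responsive group, so that 2 of the 7 did not overlap, against 10.5% of all loci. Against PBS, all 7 were above 0 in responsive tumors with a median of 0.86, and none had an unadjusted p under 0.05, against 19.1% of all loci. For nonresponsive against PBS tumors 5 of 7 were above 0, with a median of 0.22.

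Of 15 genes of receptor signaling, 14 could be tested in each comparison, all but the adaptor Trat1. Between responsive and nonresponsive tumors 5 of the 14 had an unadjusted p under 0.05 (limma), all higher in responsive tumors and without overlap, and none had an adjusted p under 0.05. Of all loci 5.93% had such an unadjusted p, 4.36% in this direction, and 10.5% did not overlap. They were the kinases Lck (0.60 ± 0.18 on the log2 scale) and Zap70 (0.65 ± 0.18), the adaptor Lat (0.60 ± 0.24), the adhesion receptor Cd2 (0.69 ± 0.19) and the inhibitory surface receptor Cd5 (0.58 ± 0.23). Lck had 15.4, 14.8 and 13.8 FPKM in nonresponsive and 19.97, 22.3 and 26.1 in the responsive group. The median over the 14 was 0.32. Against PBS, Lat was the 1 gene of 14 with an unadjusted p under 0.05 (19.1% of all loci had one), at 1.05 ± 0.39 (unadjusted p = 0.0755 to 0.0870 without PBS tumor 3 or any single responsive tumor), and between nonresponsive and PBS tumors there was none, with medians of 0.55 and 0.23. With all 9 tumors in 1 fit, Cd3d, Lck, Zap70, Lat, Cd2 and Cd5 had unadjusted p values of 0.0849 to 0.185 between responsive and nonresponsive tumors. Cd3d and Cd2 kept an unadjusted p under 0.05 without any single tumor, Lck (0.0745) and Zap70 (0.0581) lost it without responsive tumor 3, and Cd5 and Lat lost it without any of several tumors, nonresponsive tumors 2 and 3 and responsive tumors 1 and 3 among them.

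Summed over segments, beta chain levels were near those of the constant locus but did not separate the same groups. The Trbv sum was 39.7, 140 and 58.6 FPKM in PBS, 96.7, 78.3 and 68.1 in nonresponsive and 133, 95.2 and 144 in the responsive group. Its ratio to Trbc1/Trbc2 lay between 0.855 and 1.32 in all tumors. Responsive and nonresponsive tumors overlapped in the Trbv sum, since responsive tumor 2 lay below nonresponsive tumor 1. The Trav sum was 29.3, 135 and 48.0 FPKM in PBS, 72.3, 76.6 and 68.6 in nonresponsive and 92.1, 63.5 and 141 in the responsive group, and the ratio to Trac lay between 1.09 and 2.71. Relative to the summed Cd3d, Cd3e and Cd3g (20.04 to 69.6 FPKM in PBS, 49.0 to 53.3 in nonresponsive and 59.4 to 74.98 in the responsive group), Trbc1/Trbc2 was at 1.24 to 1.73, 1.34 to 1.70 and 1.53 to 2.17. The ranges of responsive and nonresponsive tumors overlapped, in contrast to the Trbc1/Trbc2 levels of these groups.

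The delta chain was high in single tumors of the antibody-treated groups. The locus of Trdc, the delta constant gene, and Trdv4, a delta variable segment, had 1.85, 2.53 and 6.17 FPKM in PBS, 35.4, 8.06 and 2.05 in nonresponsive and 32.2, 1.34 and 1.33 in the responsive group. Nonresponsive tumor 1 and responsive tumor 1 stood far above the other 7. With all tumors in, the differences between groups were within the spread of the tumors. The log2 fold change was −0.83 ± 1.33 between responsive and nonresponsive tumors (limma, unadjusted p = 0.555), and it was 0.10 without nonresponsive tumor 1. Against PBS it was 0.44 ± 1.11 in responsive tumors (limma, unadjusted p = 0.704) and −0.84 without responsive tumor 1, and in nonresponsive tumors it was 1.27 ± 0.91 (unadjusted p = 0.214), or 2.13 without nonresponsive tumor 3 (unadjusted p = 0.0317). The joined value does not give the level of Trdv4 apart from Trdc. In PBS tumors 1 and 2 and nonresponsive tumor 3, Trdv4 also had an entry of its own. That entry, which the joined value includes, had 1.49, 0.933 and 1.52 FPKM. Delta segments in entries without a constant gene summed to at most 3.41 FPKM in any tumor. The other 2 delta segments seen were low. Trdv1 had 0.715 FPKM in nonresponsive tumor 1 and 1.44 in responsive tumor 2, and Trdv2-2 had 1.14 in responsive tumor 2.

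The gamma chain entry with Trgv6 and Il17a were highest in the same tumors as the delta locus. This gamma chain entry, joined over tumors, names 7 genes. They include Trgv6, a segment of innate-like gamma delta T cells, and the constant genes Trgc1, Trgc3 and Trgc4, so its level is not that of Trgv6 alone. The entry had 1.52, 3.98 and 5.36 FPKM in PBS, 27.9, 11.3 and 3.47 in nonresponsive and 26.3, 2.602 and 5.33 in the responsive group. Il17a, the cytokine that innate-like gamma delta T cells can secrete, had 0, 1.30 and 8.36 FPKM in PBS, 12.3, 8.80 and 0.822 in nonresponsive and 13.5, 0.582 and 0.854 in the responsive group. For the delta locus and for Il17a the 4 highest tumors were nonresponsive tumors 1 and 2, responsive tumor 1 and PBS tumor 3. The other gamma entry tested, Trgc2 with Trgv2, was flatter, from 1.17 to 9.17 FPKM over the 9 tumors, and was highest in other tumors, nonresponsive tumor 2 (9.17) and responsive tumor 2 (8.96). Cd8a was lowest in responsive tumor 1 and nonresponsive tumor 1, at 2.46 and 4.70 FPKM. Among other genes of innate-like T cells, Sox13 lay between 2.28 and 3.88 FPKM and Zbtb16 between 0.245 and 0.629 in all tumors, and neither followed the delta locus to the same extent. The receptor-associated kinase Blk, which B cells also express, had 4.81 FPKM in nonresponsive tumor 1 and 7.13 in responsive tumor 1 but 8.56 in responsive tumor 3.

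**Figure D5:**
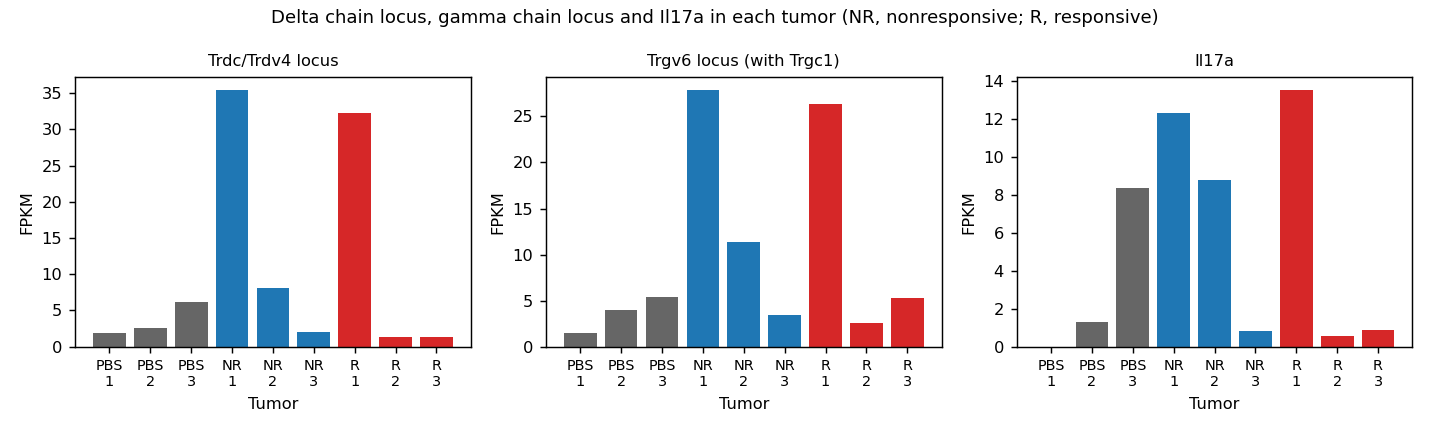
FPKM (y axis) of the Trdc/Trdv4 locus, the gamma chain locus that names Trgv6, Trgc1, Trgc3 and Trgc4, and Il17a in each tumor (x axis). Each bar is 1 tumor, colored by group. Nonresponsive tumor 1 and responsive tumor 1 have the highest bars in all 3 panels (35.4 and 32.2 FPKM for Trdc/Trdv4).

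The alpha segments of invariant T cells were present at low level. Invariant natural killer T cells pair Trav11 with Trbv13-2, Trbv29 or Trbv1. Trav11 was at 0 in all PBS tumors, at 0.663, 0.324 and 0 FPKM in nonresponsive and at 1.26, 0 and 1.04 FPKM in the responsive group, and its copy Trav11d, with 1 of 343 aligned positions different, had nearly the same values. All deposited intervals of Trav11 reached 0. Trav1, the alpha segment of mucosal-associated invariant T cells, was at 0 in all PBS and nonresponsive tumors and had 1.499, 0.953 and 0.934 FPKM in responsive tumors. It was not tested, as it stayed under the filter, and its intervals also reached 0. On the beta side Trbv29 had 1.88, 4.45 and 0.543 FPKM in PBS, 3.54, 7.36 and 7.46 in nonresponsive and 8.42, 4.59 and 6.16 in the responsive group (limma against PBS, log2 fold change 1.32 ± 0.49 in responsive tumors, unadjusted p = 0.0355, adjusted p = 0.253). Trbv19 had 3.41, 2.11 and 5.02 FPKM in responsive tumors, 0.93 ± 0.33 above PBS on the log2 scale (limma, unadjusted p = 0.0298, adjusted p = 0.248). Trbv1 lay between 1.42 and 10.6 FPKM with overlapping groups.

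Genes of receptor recombination and of immature T cells were at or near 0, apart from Rag1. Rag2, which cuts receptor genes together with Rag1, was at 0 in all 9 tumors, and Ptcra, the alpha chain partner of immature thymocytes, was at most 0.238 FPKM. Dntt, the enzyme that adds bases at receptor joints, was between 0.179 and 1.55 FPKM. Rag1 had 5.10 to 10.6 FPKM, but its entry also names the neighboring gene Iftap.

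How alike the segment profiles of 2 tumors were was described by the shared share, the sum over loci of the smaller of the shares in either tumor. For Trbv it had a median of 71.8% over the 9 pairs of tumors within a group (60.9 to 82.2%) and 70.8% over the 27 pairs between groups (61.8 to 80.8%). For Trav it had a median of 41.3% within (24.95 to 53.3%) and 39.6% between groups (26.4 to 59.1%). Tumors of the same group were about as alike as tumors of different groups in both chains. The most alike pair in Trbv was responsive tumors 2 and 3, at 82.2%, and for Trav the 3 pairs within PBS had 24.95 to 34.1%.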

How the data were processed

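RNA of whole tumors was sequenced as 9 libraries, 3 per group. The authors deposited a Cufflinks gene table for each tumor with FPKM values and confidence bounds; the submitters' notes name TopHat2 2.1.1, Bowtie2 2.2.4 and the mm8 build. The coordinates in the tables do not match GRCm38 (0 of 157 members share start and end), so positions and sequences were taken from GENCODE M21. The series' Cuffdiff table holds the authors' fold changes, p-values and q-values and was not used.

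Groups were taken from the sample labels. Each tumor was assembled on its own, and an entry can name several genes, differently in different tumors. Entries were therefore joined over tumors where they share a name, giving 48254 loci, 168 of them with members, of which 134 were above 0. In all, 7 loci with failed estimates were left out, and 20 names on several chromosomes joined nothing. The loci of Cd8a, Cd247, Lck and Lat also name Gm44174, Gm16565, Mir8119 and Mir7058, in this order. Counts of segments and shares used entries as deposited unless stated. Responsive with nonresponsive, responsive with PBS and nonresponsive with PBS tumors were compared with limma 3.58.1 (R 4.3.3, eBayes with trend, two-sided, tested on simulated data) on log2(FPKM + 1), for loci that reached an FPKM of 1 in 3 or more of the 6 tumors, with p-values adjusted by Benjamini-Hochberg over every locus tested. For low genes this scale gives too small a fold change. Exact permutation tests were two-sided, over 6 tumors. Depth was not given; from the interval widths, depth relative to PBS tumor 1 was 0.937 to 1.07. Entries without a gene name held 19.2 to 81.5% of summed FPKM, a range set by the PBS tumors. The largest such share among responsive tumors was 55.1%, below the smallest among nonresponsive tumors, 70.4%. Named entries summed to 765576 FPKM or more in every responsive tumor, and to at most 743126 in any other tumor. This offset has the same direction as the higher Trbc1/Trbc2, Cd3d and Lck levels. Scaling to this sum is given above for Trbc1/Trbc2, and for Cd3d and Lck its part is not given here. Each library is 1 tumor, and no pair of libraries shared more than 0.00634% of values.

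Named genes were the constant genes, the 5 Trav and 5 Trbv entries with the highest mean FPKM, the highest Trav and Trbv entry of each tumor, each Trdv segment seen, the segments of invariant T cells, the 5 member loci with the smallest p among those without overlap in each comparison, and the genes of the lists. Members and lists were chosen with earlier results of these data known. Alternatives were other pseudocounts (0.1), filters (none; 5 FPKM), scalings (upper quartile; summed FPKM of named entries), 1 fit of 9 tumors, a replicate block, entries naming 1 gene, and leaving out each tumor. Other B cell markers than Cd79a and Cd79b are not reported here.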

Additional observations from a re-analysis of the deposited data

How the results depend on the processing

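The number of receptor loci with an unadjusted p under 0.05 depended on the filter and the tumors. Between responsive and nonresponsive tumors it was 4, but 8 with no filter on low FPKM, 2 with all 9 tumors in 1 fit, 1 with only entries naming 1 gene, and 1 to 5 with a tumor left out (1 without nonresponsive tumor 2 and 2 without responsive tumor 3). Against PBS, responsive tumors had 6, but 13 with no filter, 1 at an FPKM of at least 5, 2 with the replicate block, and 2 to 12 with a tumor left out. Nonresponsive tumors against PBS had 3, but 1 with a pseudocount of 0.1, 9 with no filter, 0 at an FPKM of at least 5, 1 with the replicate block, and 0 to 6 with a tumor left out (6 without PBS tumor 2, 0 without PBS tumor 3). The number of all loci with such a p also moved with a tumor left out. Between responsive and nonresponsive tumors it ranged from 318 to 1447, and was 754 with all 6 tumors. Against PBS it ranged from 1097 to 4080 in responsive tumors (2434 with all 6) and from 193 to 1981 in nonresponsive tumors (409 with all 6). The filters change which loci are tested, and the other causes were not tested. For the other settings the share of all loci with such a p is not given here. Those counts therefore cannot tell a change in receptor loci from a change over all loci.

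Replicate numbers were read as names of tumors, since the labels state no pairing of animals. Deviations from the group means of same-numbered tumors correlated from −0.50 to 0.64 over 9 pairs. Differently numbered tumors of different groups correlated from −0.63 to 0.60, a similar range, so these values cannot decide whether the numbers pair animals. With the replicate block 5 receptor loci had an unadjusted p under 0.05 between responsive and nonresponsive tumors (limma). The share of all loci with such a p in that fit is not given here.

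The log2 fold change of Trdc/Trdv4 turned to 0.10 for responsive against nonresponsive tumors without nonresponsive tumor 1 (range −2.11 to 0.10), and to −0.84 for responsive against PBS without responsive tumor 1 (range −0.84 to 1.08). That of Trbc1/Trbc2 for nonresponsive against PBS turned to −0.016 without PBS tumor 1 (range −0.016 to 0.79, the highest without PBS tumor 2, unadjusted p = 0.0410).

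Segments seen with a lower interval bound above 0, an alternative chosen after seeing the data, differed by 1.67 between responsive and nonresponsive and by 5.33 between responsive and PBS tumors. The share of the highest Trbv entry differed between responsive and nonresponsive tumors by 5.65 percentage points with families summed. Against PBS it differed in responsive tumors by −3.98 with entries naming 1 gene, −2.12 with families summed and −3.63 joined over tumors (chosen after seeing the data), and in nonresponsive tumors by −4.50, −7.77 and −5.85.

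Small values limit these results: most segment intervals reach 0, and 3 tumors a group cannot give an exact permutation p under 0.1.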

Other observations

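The entries of the constant genes name the joining segments that the assembly linked to them, which belong in no comparison. The Trac entry named 17, 29 and 16 joining segments in PBS, 24, 28 and 25 in nonresponsive and 26, 23 and 28 in the responsive group. The Trbc1/Trbc2 entry named 9, 11 and 9 Trbj segments in PBS, 9, 13 and 10 in nonresponsive and 11, 11 and 13 in the responsive group. PBS tumors 1 and 3, which had the lowest Trac levels, also had the fewest joining segments named.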
